A study of Mus musculus with 3 samples.

Results

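The 38 transcripts described here encode proteins of the DNA damage response and DNA repair, and were taken by gene name from a list of RNA crosslink positions of an experiment on ZFP36L1. All 38 had at least 1 listed position, of 12541 protein-coding genes that did. The positions come from individual-nucleotide resolution crosslinking and immunoprecipitation (iCLIP), which marks where a protein touched RNA to the base. Total naive thymocytes of C57BL/6JBabr mice received ultraviolet light at 300 mJ/cm2, and bound RNA was immunoprecipitated using a Brf1/2 antibody, names also used for ZFP36L1 and ZFP36L2, so the positions cannot be assigned to ZFP36L1 alone. There were 2 WT libraries and 1 library from mice with a double conditional knockout (DCKO) of Zfp36l1 and Zfp36l2. The labels name neither the Cre driver nor the ages of the mice, and the series title speaks of pre-T cells.

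The deposited list holds 462392 positions with a summed count of 814493 and has no library column. The sources used here do not say which of the 3 libraries went into it. WT and DCKO could therefore not be compared, replicate error could not be estimated, and no test was possible. The 95% Wilson intervals cover counting error only and treat neighbouring positions as independent. A site is a listed position with an authors' false discovery value (FDR) below 0.05, and there were 141986 sites in all. Of 12 thymocyte marker genes, 11 were listed and 6 had a 3′ UTR site, with summed 3′ UTR counts from 0 to 2012, whereas Ptcra had no listed position. Markers of B, myeloid and erythroid cells had 0 genes with a 3′ UTR site and summed 3′ UTR counts of 4, 3 and 0 per list. Thymic epithelial markers had 1 gene with such a site (Epcam) and a summed 3′ UTR count of 5. Stromal and endothelial markers had 2 (Col1a1 and Pecam1), with a summed count of 40 in 3′ UTRs and 315 over all segments, and their part in the results was not tested.

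ATM and ATR are kinases that respond to broken DNA and to stalled replication forks, and pass the signal to the checkpoint kinases CHK1 and CHK2. Breaks are then mended by end joining, which ligates the ends directly, or by homologous recombination, which copies an intact sister. In thymocytes, end joining also completes the rearrangement of T cell receptor genes. ZFP36L1 belongs to a family of zinc finger proteins that bind AU-rich elements, whose core reads TATTTA in DNA letters, mostly in 3′ UTRs, and promote decay of the mRNA.

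The sequences that carry the 3′ UTR signal are shown first. Each run of 30 bases is the reference sequence of RefSeq GRCm38.p6 on the transcribed strand around the site with the highest count in that 3′ UTR. Capitals mark TATTTA where it lies in the window and otherwise the base of the site. The Clspn and Usp1 sites lie at TATTTA, whereas the highest sites of Lig4, Hipk1, Bard1, H2afx, Fanca and Chek2 have none within 20 nt. A site of Lig4 and of Bard1 that does lie near TATTTA, and the strongest Rif1 site, were added after their values were seen.

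Clspn (chr4:126593395-126593424, plus strand, count 6): agaaacctgaccacTATTTAttgctgcttt
Usp1 (chr4:98935362-98935391, plus strand, count 4): gaattttatatgTATTTAtgaagatggctc
Lig4 (chr8:9970081-9970110, minus strand, count 6): aagtgattgaagaaaCatttgtgattattg
Lig4 near TATTTA (chr8:9970116-9970145, minus strand, count 2): atgggtataaacTATTTAagtaattagact
Bard1 (chr1:71029543-71029572, minus strand, count 5): cctccctcccttcctTccttccttcctttt
Bard1 near TATTTA (chr1:71029893-71029922, minus strand, count 2): gtgtttttttttttTATTTATTTAaaaata
H2afx (chr9:44336023-44336052, plus strand, count 2): agatttaatgggctaAttttattaaaggat
Fanca (chr8:123268396-123268425, minus strand, count 4): gcaccagccggcaccTttgtaaataattta
Chek2 (chr5:110873569-110873598, plus strand, count 2): tttgaatgtgaaagaAatgtgcttccttcc
Rif1 (chr2:52121569-52121598, plus strand, count 6): actctttcaaaaTATTTAtatttgttgtgc

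A 3′ UTR site was found in 8 of the 38 transcripts (21.1%, Wilson interval 11.1 to 36.3): Lig4, Hipk1, Bard1, Clspn, Usp1, H2afx, Fanca and Chek2. Among the 12503 other protein-coding genes the share was 17.7%, inside that interval. Per gene, and without regard to 3′ UTR length, the group therefore had 3′ UTR sites about as often as other genes. Per kb of annotated 3′ UTR it had 1.13 sites, or 0.808 without Lig4, against 0.704 in other genes. The signal was held by few members. Counts in 3′ UTRs were uneven in other genes too, with an upper quartile of 4 and a maximum of 2012. Hipk1, Bard1, Lig4 and Clspn together had 269 of the 351 counts in 3′ UTRs (76.6%) and 116 of the 138 counts at 3′ UTR sites (84.1%).

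Most of the counts in these genes lay in introns. Over all listed positions the 38 genes had 2476 counts, of which 73.9% were labelled intron (72.1 to 75.6), 14.2% 3′ UTR (12.9 to 15.6), 11.6% coding (10.4 to 12.9) and 0.283% 5′ UTR. The other protein-coding genes had 76.9%, 13.2%, 9.12% and 0.811%. At sites alone, 3′ UTRs held 14.3% of the members' counts (12.2 to 16.6) against 17.5% in other genes, a share below that of other genes. Over all positions the 13.2% of other genes lay inside the members' interval. With annotated 3′ UTRs in place of the authors' label, which moves the Rif1 sites described below, the order at sites turned, to 20.9% against 19.7%. Counts of 1 and of 2 stood at 48.4% and 47.4% of the members' positions, and counts of 3 or more at 4.19%, against 49.1%, 46.5% and 4.45% in other genes.

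**Figure D1:**
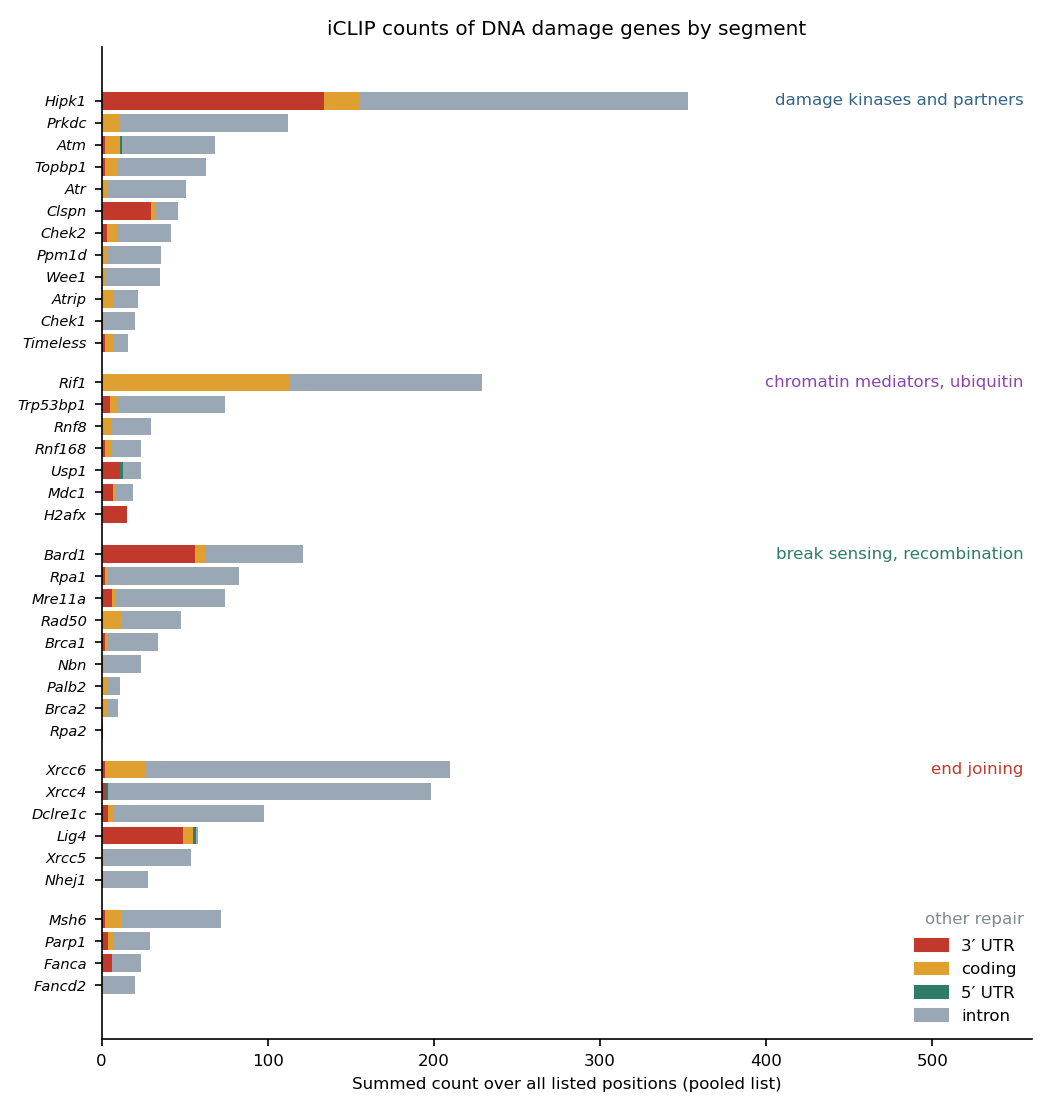
Summed count over all listed positions (x axis) of each of the 38 genes (y axis, in groups by role), with colours for the segment labels 3′ UTR, coding, 5′ UTR and intron. Hipk1 has the longest bar, at 353 counts, and Lig4, H2afx and Clspn are mainly 3′ UTR, whereas the bars of most other genes are mainly intron.

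The members were listed more often than other genes in 3′ UTRs and coding sequence, and at a share near that of other genes in introns and 5′ UTRs. At least 1 listed 3′ UTR position was found in 25 of 38 members (65.8%, Wilson interval 49.9 to 78.8, against 45.8% of other genes), and a coding position in 30 (78.9%, 63.7 to 88.9, against 54.1%). An intron position was listed in 36 members (94.7%, 82.7 to 98.5, against 91.7%) and a 5′ UTR position in 4 (10.5%, 4.17 to 24.1, against 11.5%). The median summed count was 2 in 3′ UTRs, 3.5 in coding sequence and 31 in introns, against 0, 1 and 8 in other genes. At sites, the medians in 3′ UTRs were 0 in both sets.

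Transcript length differed between the sets. The members had a median of 892 bp of annotated 3′ UTR, 2580 bp of coding sequence and 34522 bp of intron, against 1294, 1515 and 25080 bp in other genes. Per kb, the median count was 1.53 in 3′ UTRs, 0.980 in coding sequence and 0.829 in introns, against 0, 0.629 and 0.4999 in other genes. Of 37 members with introns, 29 were above the intron median of other genes per kb. The number of cells and the mRNA level of each gene are not in the list, so a count cannot be divided into abundance and contact. Whether mRNA level moves with these counts was not tested.

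**Figure D2:**
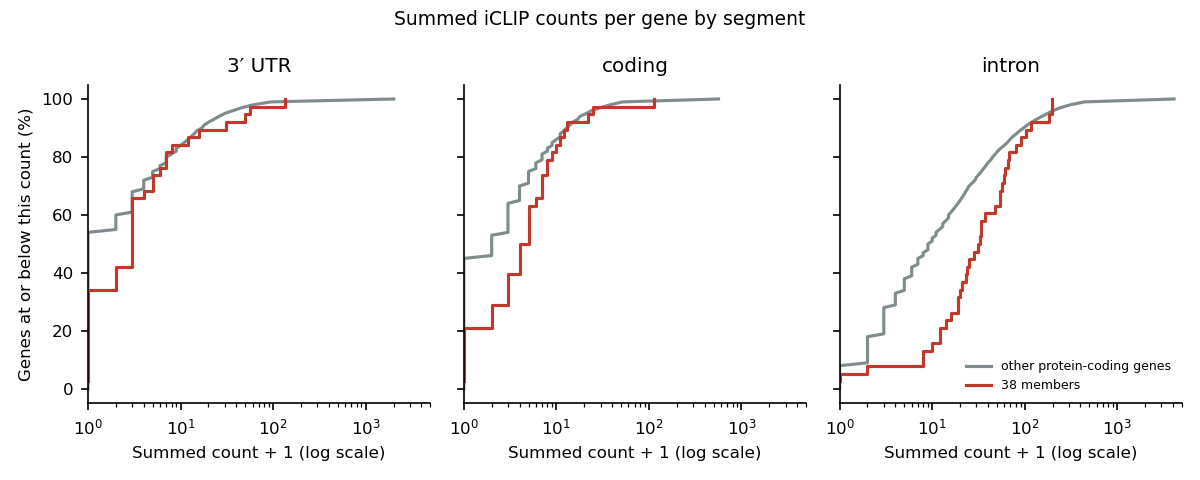
Share of genes (y axis, percent) at or below a summed count (x axis, count plus 1, log scale) for the 38 members and the 12503 other protein-coding genes, in 3′ UTRs, coding sequence and introns. Members are in red and other genes in grey. The red curve lies to the right in introns, where medians are 31 and 8, and meets the grey curve in the upper part of the 3′ UTR panel.

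Among the damage kinases and their partners, 3 of 12 had a 3′ UTR site. Hipk1 encodes a nuclear kinase that phosphorylates p53. It had the highest 3′ UTR count of the members, 134 over 85 positions, and 99.5% of other genes had less. Only 16 of these positions, with 31 counts, were sites. They formed 4 clusters (sites at most 15 nt apart) in a 3′ UTR of 4133 nt, at 1472 to 1483, 3491 to 3496, 3700 to 3720 and 3813 to 3822 nt after the stop codon. None of the 16 sites had TATTTA within 20 nt. This 3′ UTR holds 4 copies of TATTTA, and 3 of them had a listed position but 0 had a site within 20 nt. The Hipk1 signal was thus wide and low, with a highest site count of 4.

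Clspn encodes claspin, an adaptor through which ATR activates CHK1. Its 30 counts in the 3′ UTR included 6 closely spaced sites with counts of 1 to 6 that summed to 21. These lay at 403 to 410 nt after the stop codon, and the single TATTTA of this 900 nt 3′ UTR begins at 406 nt. All 6 sites were therefore at the motif, with no site elsewhere in the 3′ UTR. Per kb of 3′ UTR, Clspn had 33.3 counts and Hipk1 32.4, the highest values among the members.

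The remaining kinases had little 3′ UTR signal. Chek2, the checkpoint kinase CHK2, had 2 sites with 3 counts at 9 and 18 nt after the stop codon. Atm had 2 counts in its 3′ UTR, Topbp1 (an activator of ATR) 2, Timeless (a fork protection factor) 2 and Chek1 1, and none was a site. Atr, Atrip (the partner of ATR), Prkdc (the DNA-dependent protein kinase), Wee1 (a kinase that holds back mitotic entry) and Ppm1d (a phosphatase that ends the response) had 0 counts labelled 3′ UTR. Of these, Prkdc had 101 intron counts over 191700 bp of intron.

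Among chromatin mediators and ubiquitin factors, Usp1 and H2afx had 3′ UTR sites. Usp1 encodes the enzyme that removes ubiquitin from FANCD2. Its 3 sites, with counts of 2, 3 and 4, lay at 563 to 569 nt after the stop codon, where the second of its copies of TATTTA begins at 569 nt. The first copy, at 403 nt, had no listed position within 20 nt. H2afx encodes histone H2AX, which marks chromatin around breaks. It has no intron, and its 15 counts were all in the 3′ UTR. Its 4 sites, with 6 counts, were 33 to 50 nt from the annotated end and had no TATTTA near them. Mdc1, a reader of phosphorylated H2AX, had 7 counts in the 3′ UTR, Trp53bp1 (53BP1) had 5 and the ubiquitin ligase Rnf168 had 2, and none was a site. Rnf8, the ligase that acts before RNF168, had 0.

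Rif1 stood apart from the other members because of its label. RIF1 works with 53BP1 to protect broken ends. The authors' labels gave Rif1 0 counts in the 3′ UTR and 113 in coding sequence, more than 99.8% of other genes. Of its 36 coding sites, 30 (64 counts) lie in a GENCODE 3′ UTR of the gene and not in a coding exon. Such labels were not particular to Rif1. In other genes, 2272 of 6672 coding sites, in 388 genes, also lay in a GENCODE 3′ UTR, with overlap of coding exons not excluded. The 30 Rif1 sites formed 6 clusters. The highest, with 22 counts over 8 sites, lay at 1157 to 1173 nt after the stop codon of an annotated transcript. A copy of TATTTA begins there at 1163 nt. All 8 of those sites, and 10 of the 30, had TATTTA within 20 nt. The annotated 3′ UTR holds 5 copies of TATTTA, and only 2 of them had a site within 20 nt. By annotation, 9 members had a site in a 3′ UTR (23.7%, against 20.1% of other genes).

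After Rif1, the highest coding counts were 24 in Xrcc6, 21 in Hipk1, 12 in Rad50 and 11 in Prkdc, but coding sites were few. By the authors' label they occurred in 7 members (18.4%, against 13.1%), and Rif1 held 71 of the 93 counts. Xrcc6 had 4 coding sites with 5 counts, Chek2 had 1 with 4 counts, Ppm1d and Rnf8 had 2 each with 4 counts, Brca2 had 1 with 3 and Brca1 had 1 with 2. The Rnf8 sites also lie within other annotated genes of the same strand, Gm28043 and Gm28052. No 5′ UTR site was found in any member (0%, against 1.14%), where 4 positions were listed.

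Among genes of break sensing and homologous recombination, Bard1 was the 1 of 9 with 3′ UTR sites. BARD1 is the obligate partner of BRCA1. Its 3′ UTR had 56 counts over 30 positions, and 97.7% of other genes had less. Its 10 sites with 23 counts formed 3 clusters, and 5 of them had TATTTA within 20 nt. The largest cluster, with 11 counts, lay at 594 to 618 nt after the stop codon, over overlapping copies of TATTTA that begin at 612 and 616 nt. The cluster with 7 counts at 963 to 966 nt lay in a repeat of C and T. Both of these clusters were wholly soft-masked, that is, marked as repetitive or of low complexity in the reference. So were the Usp1 cluster and the highest Rif1 cluster. The clusters with the most counts in Lig4 (17, at 968 to 995 nt) and Hipk1 (11, at 3813 to 3822 nt) were wholly soft-masked too. The Clspn cluster and the other Lig4 clusters had no soft-masked site, and the other Hipk1 clusters had 0 or 1 each.

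The other recombination genes had 0 to 6 counts in their 3′ UTRs and no site. Mre11a, the nuclease of the complex that senses breaks, had 6, and its partners Rad50 and Nbn had 0 each. Brca1 had 2, Rpa1 (single-strand DNA binding) 2 and Rpa2 1, whereas Brca2, a mediator of homologous recombination, and Palb2, its link to BRCA1, had 0. Rpa2 had the lowest total of all members, 1 count.

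Among the end joining genes, Lig4 had the most 3′ UTR site counts of all members. LIG4 is the ligase that seals the break. It had 19 sites with 41 counts of its 49 in the 3′ UTR, and 97.3% of other genes had fewer 3′ UTR counts. All 19 lay within 892 to 995 nt after the stop codon, near the middle of a 1994 nt 3′ UTR. TATTTA begins at 910 and 1012 nt. The 7 sites with TATTTA within 20 nt surround the first copy, while the 11 sites from 947 to 995 nt, with the highest count of 6, lie between the copies. Lig4 had 1 count in its 3436 bp of intron, or 0.291 per kb.

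The partners of LIG4 had most of their counts in introns, which are far longer than those of Lig4. Xrcc4, which binds and stabilises LIG4, had 2 counts in the 3′ UTR and 194 in introns. Xrcc6 and Xrcc5, the Ku subunits that hold broken ends, had 2 and 0 in 3′ UTRs against 184 and 53 in introns. Nhej1 (XLF) had 1 against 27. Per kb the order turned for Xrcc4 (4.58 in the 3′ UTR against 0.812 in introns), Xrcc6 (12.0 against 3.79) and Nhej1 (1.80 against 0.344). Their 3′ UTR values rest on 1 or 2 counts, however. Lig4 was higher in the 3′ UTR both by count and per kb (24.6 against 0.291). Dclre1c encodes Artemis, the nuclease that opens the hairpins made in receptor gene rearrangement. It had 4 counts and no site in an annotated 3′ UTR of 5459 bp with 11 copies of TATTTA, the most of any member, and 91 counts in introns.

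Of the other repair genes, Fanca, a subunit of the Fanconi anaemia core complex, had 1 site with a count of 4, 32 nt after the stop codon. Parp1 (the sensor of single-strand breaks) had 4 counts and Msh6 (mismatch recognition) 2 counts in 3′ UTRs with no site, and Fancd2, the target of that core complex, had 0. Palb2, Fancd2, Parp1, Timeless and Rpa2 had no site in any segment, so 33 of 38 members had 1 (86.8%, against 63.5%).

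**Figure D3:**
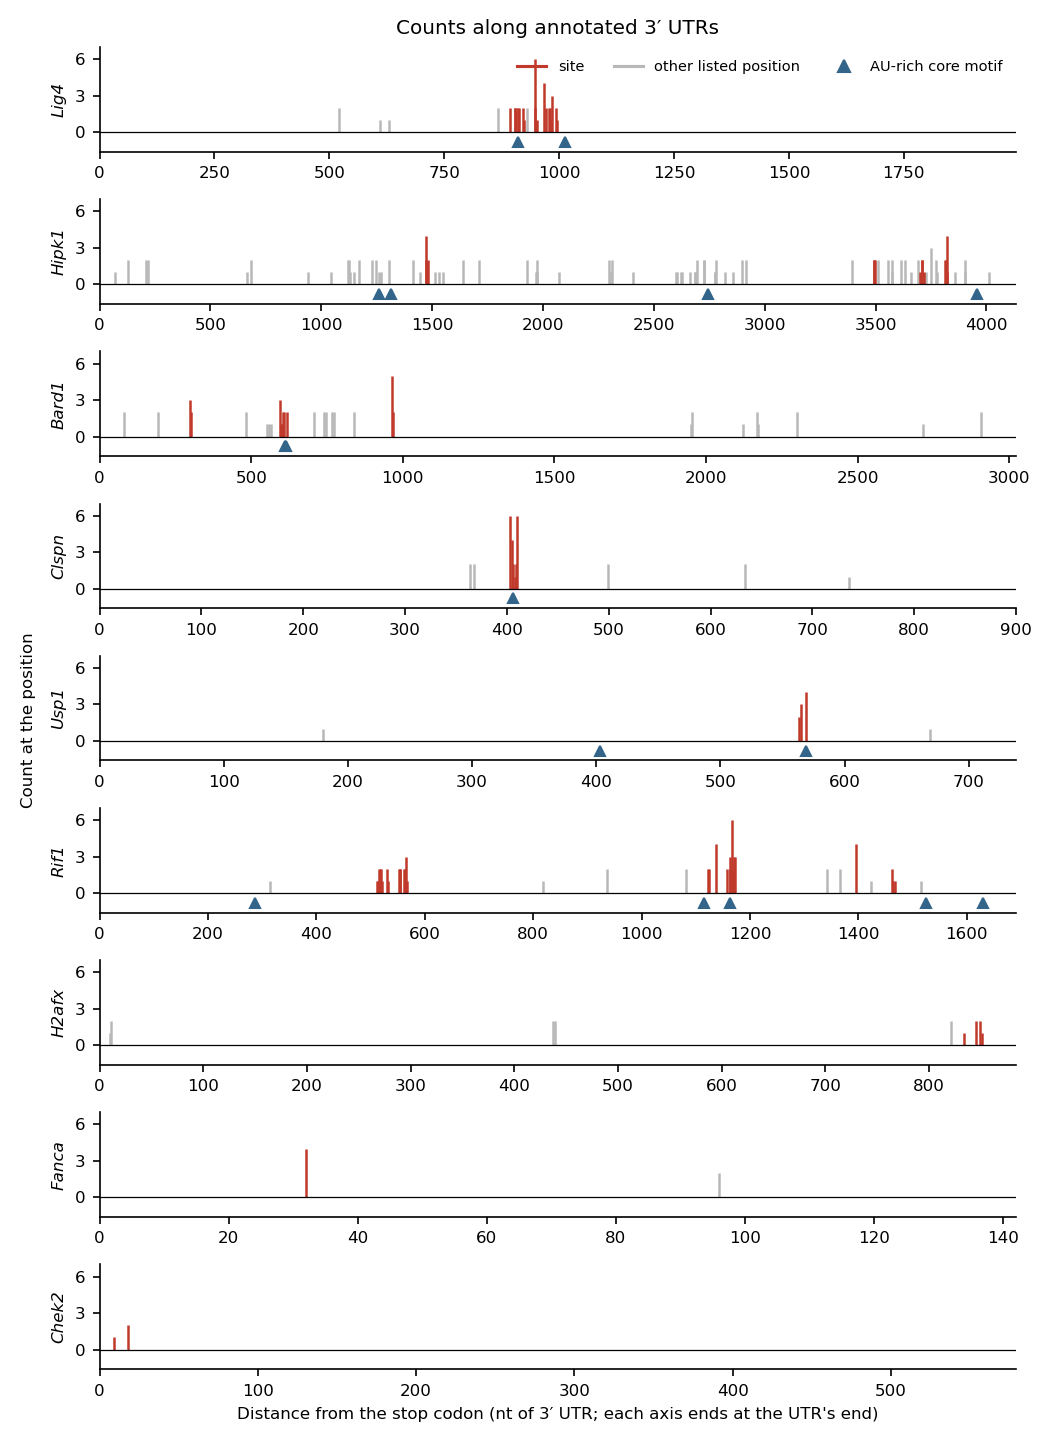
Counts at listed positions (y axis) along the annotated 3′ UTR (x axis, nt after the stop codon, each axis ending at the end of the 3′ UTR) of 9 members, with sites in red, other positions in grey and copies of TATTTA as triangles. Clspn and Usp1 sites stand at a triangle, Lig4 sites lie on and between its triangles, and Hipk1 positions are spread over 4133 nt with no site within 20 nt of a triangle.

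TATTTA lay within 20 nt of 21 of the 61 sites labelled 3′ UTR (34.4%, Wilson interval 23.8 to 46.9), against 28.8% of 16530 sites in other genes, inside the interval. With a window of 50 nt the gap was wider, at 55.7% against 40.0%. Almost all of the sites gained were in Lig4, at 892 and 947 to 995 nt, near its copies at 910 and 1012 nt. The 21 sites with TATTTA within 20 nt belonged to Lig4 (7), Clspn (6), Bard1 (5) and Usp1 (3). Thus 4 of 38 members had such a site (10.5%, against 6.92%). The shorter ATTTA lay near 47.5% of the members' sites (35.5 to 59.8) and 36.4% of others, inside the interval. A run of TTTTTT lay near 22.95% (14.2 to 34.9) against 32.1%, inside the interval. The site was a thymidine in 73.8% (61.6 to 83.2) against 65.7%, inside the interval. Soft-masked sequence held 42.6% (31.0 to 55.1) against 59.6%. With annotated 3′ UTRs, which add the Rif1 sites, it held 53.8% (43.7 to 63.7) against 58.6%, inside the interval, and ATTTA lay near 49.5% (39.4 to 59.5) against 36.0%.

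Having TATTTA in the 3′ UTR was not the same as having a site there. The motif was present in the annotated 3′ UTR of 17 of 38 members (44.7%) and 52.6% of other genes. Of those 17, 5 had a site labelled 3′ UTR (29.4%), and of the 21 without it 3 had (14.3%). In other genes the shares were 26.8% and 8.21%, with median 3′ UTR lengths of 2149 and 660 bp. Of 44 copies of TATTTA in the members, 7 had a site within 20 nt, 2 of them the Rif1 copies with sites labelled coding (15.9%, Wilson interval 7.93 to 29.4), against 8.87% of 15955 copies in other genes. Copies in Atr, Chek1, Ppm1d, Trp53bp1, Rnf8, Rnf168, Mre11a, Rad50, Palb2 and Fancd2 had no listed position within 20 nt.

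In introns, 29 of 38 members had a site (76.3%, Wilson interval 60.8 to 87.0, against 55.5%). There were 404 intron sites with 737 counts, and Xrcc4, Xrcc6 and Hipk1 held 49.3% of those counts. Over all positions the highest intron counts were 198 in Hipk1, 194 in Xrcc4, 184 in Xrcc6, 116 in Rif1 and 101 in Prkdc. The median intron count was 72 in the 6 end joining genes, 33 in the 12 kinases and partners, 30 in the 9 recombination genes, 21 in the 4 other repair genes and 18 in the 7 chromatin mediators. Per kb of intron the order differed, with 1.01 in both the kinases and the chromatin mediators, 0.718 in end joining, 0.684 in recombination and 0.594 in other repair. Xrcc4 had the most sites, 84, over 238985 bp of intron, which gave 0.812 counts per kb. Msh6 had 5.22 counts per kb, Hipk1 4.55, Xrcc6 3.79, Rif1 2.87 and Dclre1c 2.84, each above at least 90.5% of other genes. Length thus placed Xrcc4 and Prkdc high by count but near other genes per kb, with Prkdc at 0.527.

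**Figure D4:**
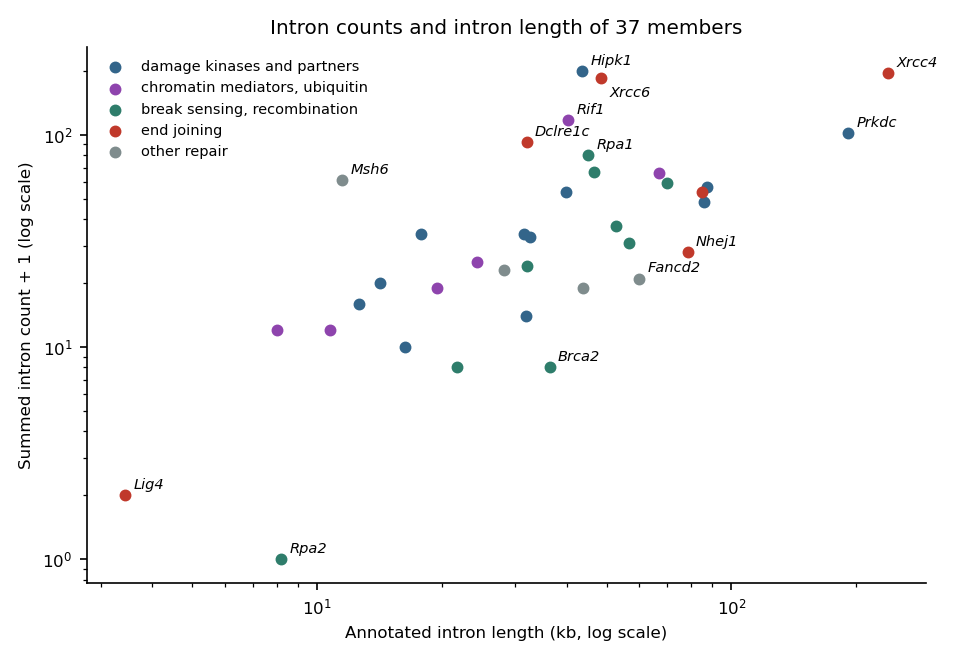
Summed intron count plus 1 (y axis, log scale) against annotated intron length in kb (x axis, log scale) for the 37 members with introns, coloured by role. Xrcc4 and Prkdc have the longest introns, Hipk1, Xrcc6 and Msh6 stand above genes of like length, and Rpa2 is at 0 counts.

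The strongest intron sites were of more than 1 kind. The highest count, 9, was in Xrcc6 in a pyrimidine tract just before a 3′ splice site. The cluster with the most counts, 30 over 10 sites, was also in Xrcc6, on tandem copies of TATTTA. Clusters of Mre11a (28 counts over 10 sites) and Hipk1 (26 over 11) likewise had TATTTA near 8 sites each, as did all 8 sites of an Xrcc4 cluster with 17 counts. Of the 13 intron clusters with at least 10 counts, however, only 5 were near TATTTA. A Dclre1c cluster with 17 counts, just before a 3′ splice site, and a Wee1 cluster with 15 had 7 sites each. Both had a run of TTTTTT near each site and no TATTTA. A Hipk1 cluster with 15 counts over 5 sites had neither motif near it. The sequences below show the highest intron site of Xrcc6, Mre11a and Hipk1, with the same use of capitals. A tandem repeat site of Xrcc6 was added after its values were seen.

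Xrcc6 (chr15:82039683-82039712, plus strand, count 9): agcatttccaggtctTtccttcctgtctct
Xrcc6 tandem repeat (chr15:82026778-82026807, plus strand, count 7): ttagatttTATTTATTTATTTATTTATTTA
Mre11a (chr9:14805677-14805706, plus strand, count 6): tttctttctttctttTATTTATTTAtttct
Hipk1 (chr3:103754017-103754046, minus strand, count 5): ctttacaactctcccAttgtctctttagac

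TATTTA lay within 20 nt of 87 intron sites (21.5%, Wilson interval 17.8 to 25.8), against 22.1% in other genes, and 17 members had such a site (44.7%, against 22.7%). The highest numbers were 18 in Xrcc4, 15 in Xrcc6, and 8 each in Mre11a and Hipk1. Soft-masked sequence held 81.2% of the members' intron sites (77.1 to 84.7) against 74.6%. Outside it, 3 of 76 sites had TATTTA near them (3.95%), against 10.3% in other genes. The TATTTA signal of these introns thus lay mainly in soft-masked sequence. In other genes too the share near TATTTA was lower outside it, at 10.3% against 22.1% over all intron sites.

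Intron sites just before exons were more common in the members. Of 404 intron sites, 74 lay within 50 nt upstream of an annotated 3′ splice site (18.3%, Wilson interval 14.9 to 22.4), against 10.2% in other genes. They belonged to 12 members (31.6%, against 17.8%). Dclre1c had 20 of its 24 intron sites there, Xrcc6 13 of 59, Rif1 11 of 28, Trp53bp1 6 of 14, Hipk1 5 of 49, Msh6 5 of 8 and Atm 4 of 9. Atr, Wee1, Clspn, Brca1 and Bard1 had 2 each. None of the 74 had TATTTA within 20 nt, against 596 of 8965 in other genes. In alternatives chosen after seeing the data, the share was 14.2% without Dclre1c, 17.7% without Xrcc6 and 12.8% without both (Wilson interval 9.56 to 16.9), which spans the 10.2% of other genes.

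**Figure D5:**
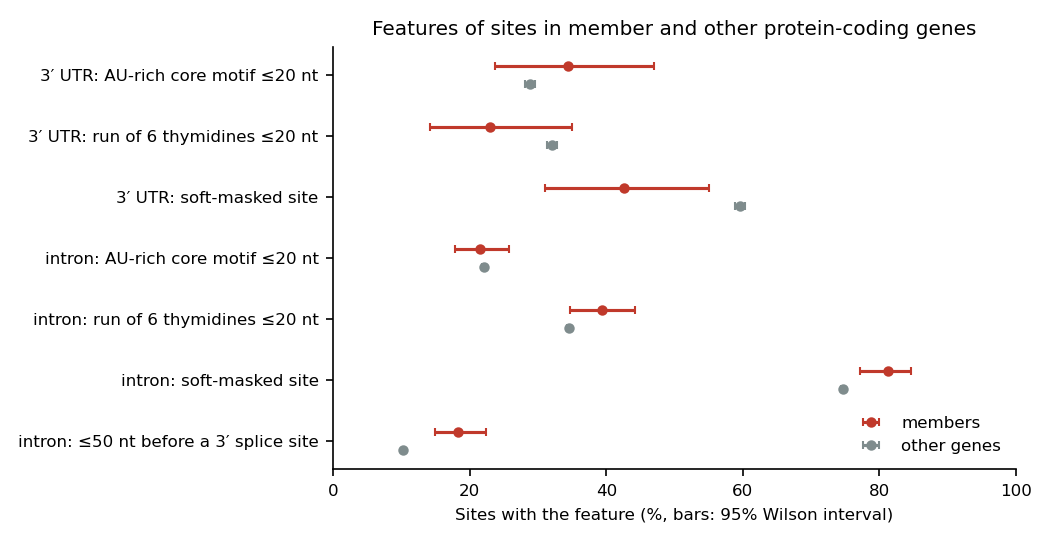
Share of sites with each feature (x axis, percent, bars: 95% Wilson interval) in members and in other protein-coding genes, for 3′ UTR and intron sites (y axis). In 3′ UTRs the interval of the AU-rich core motif TATTTA (34.4% in members) covers the 28.8% of other genes. In introns the shares before a 3′ splice site are 18.3% and 10.2%. Without Xrcc6 and Dclre1c, which is not drawn, the members' share is 12.8% (9.56 to 16.9), an interval that covers the 10.2%.

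Other genes of DNA repair and the damage response had 3′ UTR sites at a like rate. Of 118 further genes, 112 were listed, and 18 of these had a 3′ UTR site (16.1%, Wilson interval 10.4 to 24.0, against 17.7% of genes outside the 38). Their median counts were 0 in 3′ UTRs and 20 in introns. The highest were Usp7, a deubiquitinase, with 10 sites and 20 counts, Smc5 with 9 and 15, Dntt (terminal transferase) with 6 and 13, Smc6 with 5 and 11, and Recql5, a helicase, with 6 and 8. TATTTA lay near 4 sites of Usp7, 2 of Smc5 and 0 of Dntt, Smc6 and Recql5.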

How the data were processed

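The deposited list gives, per position, strand, segment label, biotype and gene name, and 4 values in columns described by the file headers. The authors' count per position carries the strand as its sign, and was treated as a score and used by its size. Their extended score, the sum within 15 nt, only ordered sites of equal count. The authors' p-value was not used, and their FDR, deposited as a score with values above 1 at 3825 positions, only set the threshold. The submitters' processing notes name Bowtie and GRCm38; how positions, labels and FDR were derived is not stated.

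Listed positions count from 0: under that reading, positions at the first base of coding exons carried the coding label 847 times and the intron label 1 time. Coordinates were raised by 1 and compared with GENCODE vM21 and RefSeq GRCm38.p6, whose soft-masking was used. TATTTA and other motifs were sought on the site's strand, wholly within 20 nt of it. Counts were summed per gene and segment with Python 3.11.15 and pandas 2.3.3, and the scripts were tested on simulated data. The members and gene lists were chosen with earlier results of these data known. Genes named by rule are the members with a 3′ UTR site, the 5 with the highest count per segment, and the 5 further genes with the highest 3′ UTR site counts; other members are named by role to account for all. Alternatives were other FDR and count limits, all positions, annotated 3′ UTRs, other windows and motifs, and leaving out a member. The sequences at some sites are not reported here.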

Additional observations from a re-analysis of the deposited data

How the results depend on the processing

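No paired analysis was possible because the list has no library column, so no fit between groups was made; for the same reason no library could be left out. Of 41 alternatives to the members' values, 19 stayed within the Wilson interval of the share or within 1.5 times the count or median, and 22 did not. Of the latter, 2 leave Dclre1c out of the splice site share and stand in the text above, and the other 20 follow.

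Over all listed positions, 25 members had a 3′ UTR position (65.8%, others 45.8%). TATTTA lay near 13.6% of 3′ UTR positions (others 15.45%) and 12.4% of intron positions (others 10.7%). The 3′ UTR positions numbered 3.67 per kb, against 1.13 per kb for sites (others 1.86 and 0.704). With an authors' FDR below 0.01, 3′ UTRs held 16.9% of site counts (others 19.3%), and TATTTA lay near 26.9% of intron sites (others 25.6%). With a count of at least 3, these values were 23.9% (others 24.6%) and 45.0% (others 35.3%), and sites numbered 0.259 per kb (others 0.157). With annotated 3′ UTRs, 20.9% of site counts lay there, above the 19.7% of other genes and so in the opposite order to the authors' label. Without Lig4, 3′ UTRs held 10.5% of site counts (others 17.5%) and 0.808 sites per kb (others 0.704). With a window of 50 nt, TATTTA lay near 55.7% of 3′ UTR sites against 40.0% in other genes, a wider gap than with 20 nt. Almost all of the 3′ UTR sites gained were in Lig4. In introns that window gave 29.5% against 33.05%. TATTTAT lay near 22.95% of 3′ UTR sites (others 21.4%) and ATTTA near 47.5% (others 36.4%). TATTTA lay near 25.9% of intron sites weighted by count (others 26.4%) and 3.95% outside soft-masked sequence (others 10.3%). Medians over sites alone were 0 in 3′ UTRs (others 0) and 8 in introns (others 2). The causes were not tested.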
